A study of Mus musculus with 11 samples.

Results

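miR-21a is a mouse microRNA (miRNA) hairpin that gives a 5p arm, miR-21a-5p, and a 3p arm, miR-21a-3p. Both arms (mmu-miR-21a-5p and mmu-miR-21a-3p, here without the species prefix) were taken by name from the authors' table of miRNA counts, and they are 2 of its 1281 mature miRNA names. The series sequenced small RNA from livers of untreated telomerase-knockout mice with short telomeres, to find miRNAs that depend on the tumour suppressor p53. The 6 libraries of the G4 p53-/- group (numbered 6, 7, 8, 10, 11 and 12) came from mice lacking p53. The 5 libraries of the G4 p53+/+ group (numbered 1 to 5) came from mice with p53 intact. All mice carried the telomerase knockout on a C57/B6 background, so every value is from short-telomere liver. Mice with long telomeres were not analysed here. The labels do not name the deleted telomerase gene or give ages, and do not say whether libraries came from different animals. The p-values therefore rest on the spread among these libraries, which may be partly technical. Where a mean and SD of livers are given, n counts libraries. Trp53 itself is not measured in a table of miRNAs.

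miRNAs are short RNAs that guide Argonaute proteins to messenger RNAs, mainly through pairing of the seed, bases 2 to 8 counted from the 5′ end. miR-21 is expressed in most cell types and is known as a repressor of the tumour suppressor Pdcd4. In liver it is known to be raised in regeneration, fibrosis and cancer. Its 5p arm is the guide strand that is usually measured, and its 3p arm is the passenger strand, most copies of which are degraded.

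The sequences of both arms are shown to set them against the similar mouse genes miR-21b and miR-21c, with the seed in capitals, as RefSeq gives them on build GRCm38.p6.
miR-21a-5p: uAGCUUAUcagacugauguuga
miR-21a-3p: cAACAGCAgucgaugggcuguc
miR-21b: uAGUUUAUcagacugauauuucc
miR-21c: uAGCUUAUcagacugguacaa
Both arms of miR-21a have 22 bases. The 5p arm starts with U and has 36.4% G and C, whereas the 3p arm starts with C and has 59.1%. Counted from 1 at the 5′ end of miR-21a-5p, miR-21b differs by C4U inside the seed and by G18A, G21U and A22C outside it, followed by an added base. miR-21c keeps the seed and differs by A16G, G18A, U19C, U20A and G21A, and is 1 base shorter.

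The Mir21a hairpin of 92 bases lies on chromosome 11 of GRCm38 from 86584067 to 86584158 on the minus strand, with the 5p arm at 86584120 to 86584141 and the 3p arm at 86584082 to 86584103. GENCODE M21 places it on the same strand inside the last exon of Vmp1, a gene of autophagy, within the 3′ UTR that spans 86583865 to 86585310. The hairpin ends 202 bases before the annotated end of Vmp1. RNAfold gave the hairpin a minimum free energy of -46.2 kcal/mol. In that fold 19 of the 22 bases of the 5p arm paired with the 3p arm. The mature arms are separated by 16 bases of the hairpin.

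miR-21a-5p was the fourth most abundant miRNA of these livers by mean share, and its level did not differ detectably between genotypes. Its share of all miRNA counts averaged 3.13 ± 0.952% in p53-/- livers (SD, n = 6) and 3.01 ± 0.913% in p53+/+ livers (SD, n = 5). Over both groups the mean share was 3.07%. In the p53-/- group the lowest share was 1.45%, the median 3.19% and the highest 4.09%. In p53+/+ libraries 1 to 5 the shares were 2.15, 2.34, 3.15, 2.93 and 4.46%. The groups overlapped, with p53-/- library 10 lowest and p53+/+ library 5 highest of all 11. Counting error was small beside this: the 95% Wilson interval of library 10 was 1.44 to 1.46% and that of library 5 was 4.45 to 4.48%, covering counting error only. The means differed by 0.123 percentage points, less than 1 SD of either group (exact permutation test, two-sided, p = 0.835, or 0.892 when adjusted over the 3 such tests made), and 4 of 6 p53-/- libraries lay above the p53+/+ median.

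After TMM scaling, which corrects for differences in library composition, the level of miR-21a-5p was 31754 ± 9929 normalised CPM (counts scaled to library size; SD, n = 6) in p53-/- livers and 29990 ± 11153 normalised CPM (SD, n = 5) in p53+/+ livers. In p53-/- livers it ran from 16292 through a median of 32981 to 43776 normalised CPM. p53+/+ libraries 1 to 5 held 20116, 20125, 30669, 31753 and 47288 normalised CPM. In each group the levels spanned more than 2-fold, and 3 of 6 p53-/- libraries lay above the p53+/+ median. The log2 fold change, p53-/- over p53+/+, was 0.08 (SE 0.27, 95% interval -0.50 to 0.66). This is a ratio of 1.06 with an interval of 0.708 to 1.58, and the adjusted p was 0.907 in edgeR's quasi-likelihood test. Ratios between these bounds could not be told from no change, so equality of the genotypes was not shown. Of the 388 miRNAs tested, 0.258% (1 miRNA) passed an adjusted p of 0.05: miR-34a-5p, a direct p53 target, at 7.13 ± 2.95 normalised CPM in p53-/- livers (SD, n = 6) and 71.9 ± 32.4 in p53+/+ livers (SD, n = 5). Neither arm of miR-21a passed. An unadjusted p under 0.05 was reached by 17.3% of the 388, and by neither arm of miR-21a. Ranges of normalised CPM did not overlap between genotypes for 2.32% of the 388, against 0 of the 2 arms. With DESeq2, 1.82% of 385 miRNAs (7) passed an adjusted p of 0.05, again without miR-21a.

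The sign of the miR-21a-5p difference rested on which libraries were kept. Without p53+/+ libraries 1 and 2, the shallowest of their group and the lowest for miR-21a-5p there, the log2 fold change was -0.17 (adjusted p = 0.825 in edgeR). With only the p53-/- libraries whose HA number, a label of unstated meaning, is above 500 (libraries 10, 11 and 12) it was -0.18 (adjusted p = 0.878 in edgeR). Without p53+/+ library 5 it was 0.28 (adjusted p = 0.624 in edgeR).

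**Figure D1:**
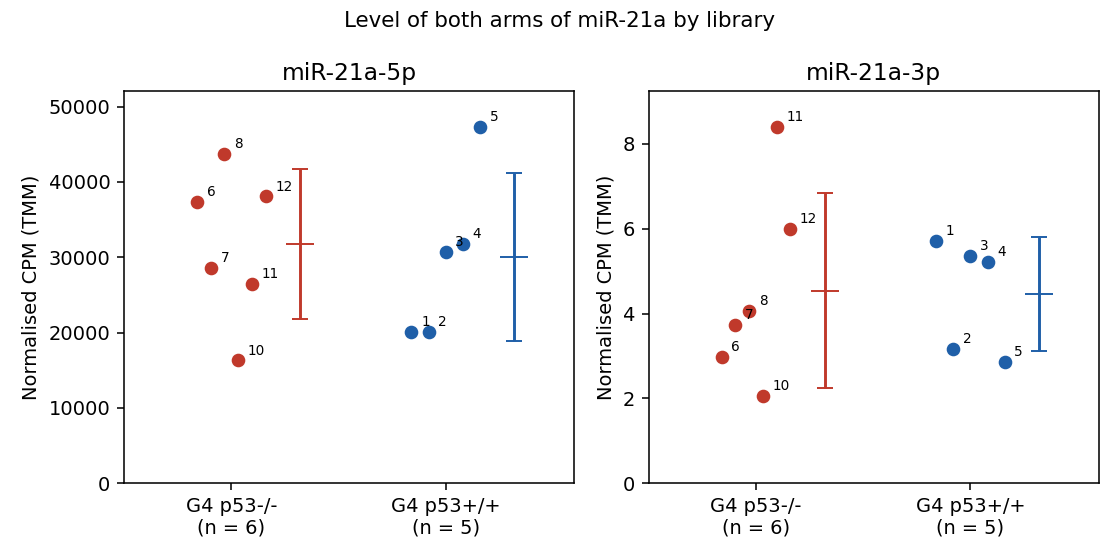
Normalised CPM (TMM) of miR-21a-5p (left) and miR-21a-3p (right) in each library, with p53-/- in red and p53+/+ in blue. Points are libraries with their numbers, and bars show the mean and SD (n = 6 and n = 5). The groups overlap for both arms, and the 5p arm averages 31754 and 29990 CPM where the 3p arm stands near 4.5 CPM.

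By count, miR-21a-5p ranked between 3 and 9 in p53-/- libraries (median 3.5) and between 3 and 8 in p53+/+ libraries (median 5). By mean share it followed miR-122-5p (56.4%), the main hepatocyte miRNA, miR-192-5p (4.07%), a miRNA of liver and gut epithelium, and let-7g-5p (3.36%), of the differentiation-linked let-7 family. After it came miR-148a-3p (2.83%), abundant in hepatocytes, let-7f-5p (2.17%) and miR-30a-5p (1.99%). Its order against its nearest neighbours was not fixed: its count exceeded that of let-7g-5p in 4 of 11 libraries and that of miR-148a-3p in 6 of 11. It exceeded let-7f-5p in 10 of 11 libraries and miR-192-5p in 0 of 11. None of these 6 neighbours passed the genotype test, with log2 fold changes of 0.16 for miR-122-5p, -0.14 for miR-192-5p, -0.06 for let-7g-5p, 0.10 for miR-148a-3p, -0.01 for let-7f-5p and -0.29 for miR-30a-5p (adjusted p from 0.393 to 0.986 in edgeR).

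miR-21a-5p varied more from library to library than most miRNAs of its abundance. Among the 20 miRNAs with the highest mean share, the highest share of miR-21a-5p was 3.08 times its lowest, the third widest range after miR-22-3p (12.7 times) and miR-378a-3p (4.51 times). The median of the 20 was 1.78 times. Its neighbour let-7g-5p spanned 1.24 times, from 2.99% to 3.72%. The lowest share of miR-21a-5p, 1.45%, was in p53-/- library 10, and its next lowest was 2.15% in p53+/+ library 1. The range of miR-21a-5p, and its place in this order, therefore rest in part on library 10. On the log2 scale of normalised CPM its SD within genotypes was 0.52, against a median of 0.32 over the 49 miRNAs at or above a mean of 1000 CPM, where it ranked 7. The miRNAs with larger values were miR-5109, miR-5099, miR-22-3p, miR-455-3p, miR-6243 and miR-378a-3p.

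p53-/- library 10 had the lowest miR-21a-5p of all 11 libraries. It held 1.45%, while the other 5 p53-/- libraries held 2.87 to 4.09%. Of the 20 most abundant miRNAs, miR-21a-5p was the only 1 at its lowest share of all 11 libraries in library 10, and none was at its highest there. The gap of library 10 to the nearest p53-/- library was 0.54 of the group's range for the share and 0.49 for log2 normalised CPM, both under Dixon's critical value of 0.625 for 6 libraries. By comparison, p53-/- library 6 held 9 of the 20 at their lowest share. The total count of library 10 was 5991644, well inside the range of 1905609 to 6682492 over all libraries. Its miR-122-5p share was 61.0%, within the p53-/- range of 52.8 to 64.0%. Without library 10 the log2 fold change of miR-21a-5p was 0.21 (adjusted p = 0.693 in edgeR). Since these are bulk samples, fewer cells of a type and less of the miRNA per cell cannot be told apart.

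**Figure D2:**
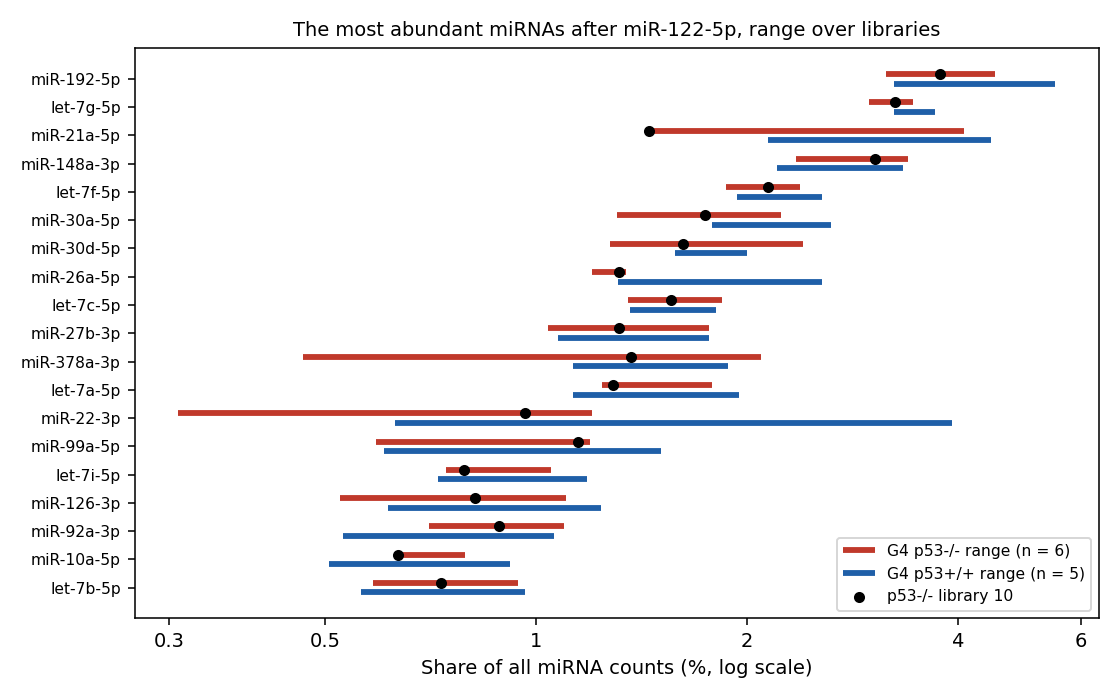
Range of the share of all counts (percent, log scale) over p53-/- libraries (red) and p53+/+ libraries (blue) for the miRNAs ranked 2 to 20, with p53-/- library 10 as black points. miR-21a-5p has a wide range in both genotypes. In p53-/- the width rests on library 10 at 1.45%, as the other p53-/- libraries run from 2.87 to 4.09%.

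The ratio to miR-122-5p within a library, which needs no scaling between libraries, gave the same picture. miR-122-5p counts exceeded those of miR-21a-5p by 12.9-fold to 42.0-fold in p53-/- libraries, with a median of 18.5-fold. In p53+/+ libraries 1 to 5 the excess was 25.2-fold, 22.4-fold, 17.2-fold, 19.7-fold and 12.1-fold. The mean log2 ratio of miR-21a-5p to miR-122-5p was -4.28 ± 0.61 in p53-/- libraries (SD, n = 6) and -4.23 ± 0.41 in p53+/+ libraries (SD, n = 5). They differed by -0.06, less than either SD (exact permutation test, two-sided, p = 0.892, adjusted p = 0.892), and 3 of 6 p53-/- libraries lay on each side of the p53+/+ median.

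miR-21a-3p, the passenger arm, was near the lower limit of what these libraries could measure. It had 11 to 43 reads in p53-/- libraries, with a median of 22.5, and 12, 7, 32, 31 and 12 reads in p53+/+ libraries 1 to 5. Counting error alone was therefore 15.2% to 37.8% of the value, against at most 0.487% for the 5p arm. Its level was 4.54 ± 2.30 normalised CPM in p53-/- livers (SD, n = 6) and 4.46 ± 1.35 in p53+/+ livers (SD, n = 5). Single p53-/- libraries ran from 2.06 through a median of 3.90 to 8.40 normalised CPM, and p53+/+ libraries 1 to 5 stood at 5.72, 3.16, 5.36, 5.22 and 2.85. The p53-/- range enclosed the whole p53+/+ range, with library 10 lowest and library 11 highest. Its log2 fold change of -0.01 had an SE of 0.35 and a 95% interval of -0.77 to 0.75 (adjusted p = 0.991 in edgeR), and 4 of 6 p53-/- libraries lay below the p53+/+ median. As a ratio the interval ran from 0.586 to 1.69.

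The arms of miR-21a were extremely unequal in every library. In all, 1680841 reads were assigned to the 5p arm and 231 to the 3p arm. There were 3145 to 12525 5p reads per 3p read in p53-/- libraries, with a median of 7783. p53+/+ libraries 1 to 5 had 3516, 6370, 5719, 6088 and 16571. Library 5 of the p53+/+ group was the most unequal of the 11, and library 11 of the p53-/- group the least. The mean log2 arm ratio was 12.85 ± 0.70 in p53-/- libraries (SD, n = 6) and 12.70 ± 0.81 in p53+/+ libraries (SD, n = 5). The means differed by 0.15, less than either SD (exact permutation test, two-sided, p = 0.749, adjusted p = 0.892). The ratio was higher than the p53+/+ median in 5 of 6 p53-/- libraries. Without p53+/+ library 5 the difference was 0.48 (exact permutation p = 0.238), and without p53+/+ libraries 1 and 2 it was -0.17 (exact permutation p = 0.786).

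Part of this spread exceeded counting error. As a share of the reads of both arms, the 3p arm made up 0.0318% in p53-/- library 11 (95% exact Clopper-Pearson interval 0.0202 to 0.0477%), and 0.00798% in p53-/- library 6 (0.00425 to 0.0137%). It made up 0.00603% in p53+/+ library 5 (0.00312 to 0.0105%) and 0.0284% in p53+/+ library 1 (0.0147 to 0.0497%). Intervals of 10 of the 55 pairs of libraries did not overlap. Of these pairs, 4 were between genotypes and the others within a genotype. Library 5 was in 5 of the 10 pairs and library 11 in 4. No molecular identifiers are recorded with these counts, and the intervals cover counting error only.

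**Figure D3:**
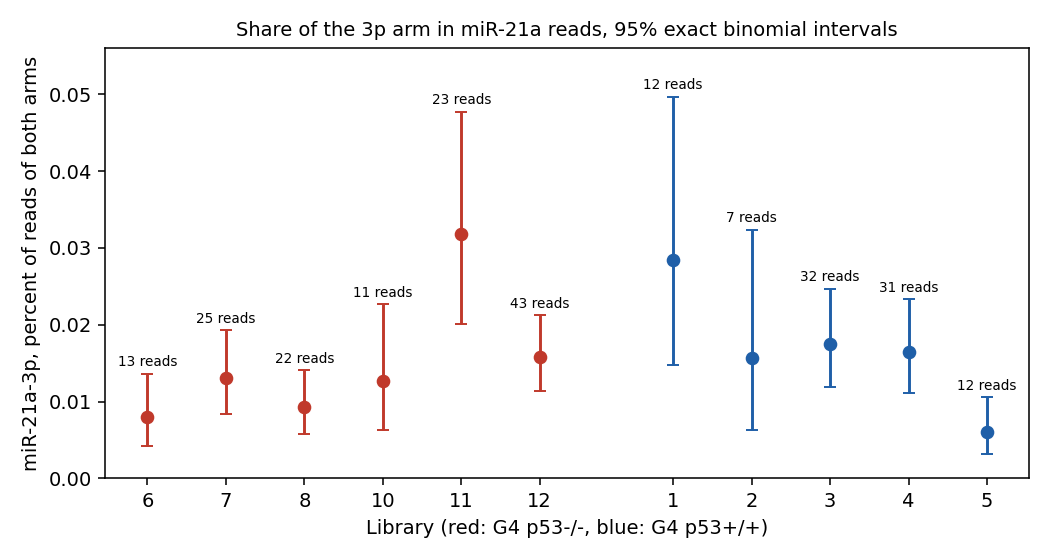
miR-21a-3p as a percent of the reads of both arms in each library, p53-/- in red and p53+/+ in blue, with 95% exact binomial intervals and the 3p reads behind each value. The 3p share runs from 0.00603% in p53+/+ library 5 to 0.0318% in p53-/- library 11, with wide intervals and no separation of the genotypes.

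The levels of the arms were only weakly related. Over the 11 libraries, log2 normalised CPM of the 5p and 3p arms had a Pearson r of 0.12 and a Spearman rho of -0.03, given as a description. Over 103 hairpins whose arms each have a name of their own and were both tested, the median Pearson r between arms was 0.39, and 35 hairpins had a lower r than miR-21a. Among the 47 of them whose minor arm averaged 2 to 10 CPM, like miR-21a-3p, the median was 0.37 and 18 were lower. All points share library depth, and counting error is large for minor arms.

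Among those 103 hairpins miR-21a was the most unequal, with a geometric mean of 6826 reads of the 5p arm per 3p read after adding 0.5 to each count. The nearest were mir-30d at 2749, let-7i at 2639 and mir-122 at 2439, all in favour of the 5p arm. The median hairpin favoured its major arm by 12.7-fold, and 52 hairpins favoured the 5p arm against 51 the 3p arm. Requiring that both arms passed the filter keeps out hairpins with a nearly absent arm, so the position of miR-21a depends on it. Over 204 hairpins with at least 1 arm tested, and with a minor arm under 3 reads set to 3, miR-21a ranked 8 by summed counts at 7276 to 1. Above it were let-7g, mir-100, mir-320, mir-146a, mir-101a, mir-328 and mir-29a. Of these, let-7g had 1779111 reads of the 5p arm and 45 of the 3p arm, while mir-100 had 110834 and 2. The spread of the log2 arm ratio within genotypes was 0.75 for miR-21a, against a median of 0.49 over the 103 hairpins.

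**Figure D4:**
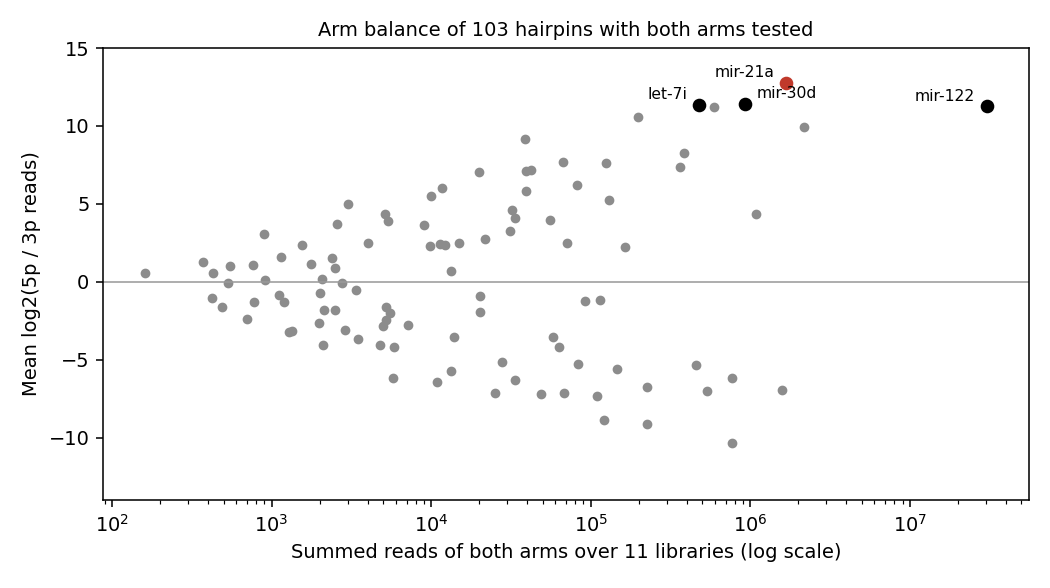
Mean log2 ratio of 5p to 3p reads (0.5 added to each count) against the summed reads of both arms (log scale) for 103 hairpins with both arms tested, each point a hairpin. Points above 0 favour the 5p arm; mir-21a (red) has the highest value at 12.74, followed by mir-30d, let-7i and mir-122.

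No other miRNA known here to carry the miR-21 seed was detected. miR-21c, which has the seed, had 0 reads in all 11 libraries, as had miR-590-5p, which in human shares this seed. miR-21b, listed with this family although its seed differs by C4U, also had 0 reads in all 11 libraries. A count of 0 allows up to 3 counts, between 0.449 and 1.57 CPM in a library. miR-21c was the only other mature mouse miRNA in the RefSeq table with the seed of miR-21a-5p, and none shared that of miR-21a-3p. Seeds were looked up only for the 1029 of the 1281 names that have a RefSeq mature sequence. Among those names, every read assigned to the seed AGCUUAU was assigned to miR-21a-5p.

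The miRNAs whose levels followed miR-21a-5p most closely over the 11 libraries were sought among 251 miRNAs with a mean of at least 10 normalised CPM. By Pearson r of log2 normalised CPM they were miR-223-3p (0.77), a miRNA of neutrophils and other myeloid cells, miR-541-5p (0.75), miR-1191 (0.74), miR-379-5p (0.74) and miR-134-5p (0.73). miR-541, miR-379 and miR-134 belong to the imprinted Dlk1-Dio3 cluster. These values describe likeness only, as the 11 points share depth and scaling. The 5 are also the top of a long list, and its number of 251 includes miR-21a-5p itself. The most opposite were let-7d-3p (-0.78), miR-423-3p (-0.70) and miR-676-3p (-0.69). None of these 8 passed the genotype test (adjusted p from 0.226 to 0.922 in edgeR).

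miR-223-3p stood at 18.0 to 47.9 normalised CPM in p53-/- livers and at 25.3, 32.5, 38.4, 31.6 and 50.9 in p53+/+ libraries 1 to 5. Its lowest level was in library 10 and its highest in library 5, the same libraries that held the lowest and highest miR-21a-5p. Without those 2 libraries its r was 0.54, while with genotype means removed it was 0.84. let-7d-3p stood at 511 to 728 normalised CPM in p53-/- livers and at 608, 649.9, 452, 520.2 and 356 in p53+/+ libraries 1 to 5. It was highest in library 10 and lowest in library 5, and without them its r was -0.58. miR-379-5p, with an r of 0.88 without those libraries, stood at 22.1 to 85.2 normalised CPM in p53-/- livers and 13.1 to 58.2 in p53+/+ livers.

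**Figure D5:**
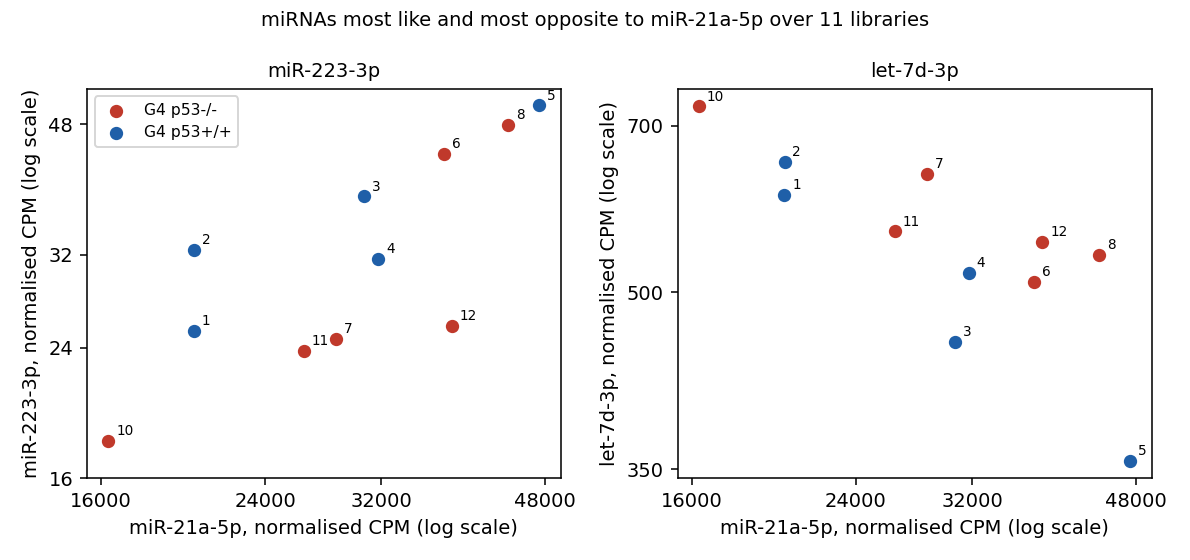
Normalised CPM of miR-223-3p (left) and let-7d-3p (right) against miR-21a-5p, all on log scales, with 1 numbered point per library (p53-/- red, p53+/+ blue). miR-223-3p is lowest where miR-21a-5p is lowest, in library 10, and highest where it is highest, in library 5; let-7d-3p runs the opposite way.

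For miR-21a-3p the closest were miR-877-3p (Pearson r 0.67), miR-337-5p (0.64) and miR-127-3p (0.61). The last 2 also lie in the Dlk1-Dio3 cluster. With so few 3p reads these values carry little weight.

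Among 25 tested miRNAs reported alongside miR-21 in liver fibrosis and inflammation, 1 fell in p53-/- livers in edgeR's test and 0 rose, against 0.258% of all miRNAs called. The median log2 fold change of the list was -0.15, against -0.01 over all 388, with 8 members above 0 and 17 below. Over all 388 miRNAs, 190 lay above 0 and 198 below. Some members of the list share a family, such as miR-29a-3p, miR-29b-3p and miR-29c-3p, so they do not count separately. Whether the list as a whole leaned to one side was not tested. The member that fell was miR-34a-5p (-3.33, adjusted p = 7.07e-05 in edgeR), the only miRNA called among all 388. Next by p, and not past the threshold, were miR-29a-3p (-0.58), a repressor of collagen genes, miR-19b-3p (-0.76), of the growth-promoting miR-17 cluster, and miR-146a-5p (-0.57), which restrains NF-kappaB signalling (adjusted p from 0.174 to 0.190 in edgeR). Their Pearson r with miR-21a-5p over the 11 libraries was -0.12, -0.35, -0.19 and 0.10 in that order.

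Markers of liver cell types were set beside miR-21a-5p, which many of these cells express. The list sums are CPM without TMM scaling, whereas miR-21a-5p and the single members were TMM-scaled. An r of a sum is therefore on a mixed scale and is not the same measure as an r of a member. On that mixed scale the sum of the miR-21 seed family, which holds only miR-21a-5p reads, had an r of 0.93 with miR-21a-5p. Summed CPM of the hepatocyte list (9 of 10 members tested) ran from 612378 to 706009.6 in p53-/- livers and from 594768 to 656719 in p53+/+ livers, with a Pearson r of 0.08 with miR-21a-5p. Single members ran from -0.53 for miR-455-3p to 0.61 for miR-101b-3p, the 1 member over 0.5. The leukocyte list (6 of 8 tested) ran from 716 to 1318 CPM in p53-/- livers and from 806 to 1954 in p53+/+ livers. Its sum had a Pearson r with miR-21a-5p of 0.02, and single members ran from 0.0034 for miR-150-5p to 0.77 for miR-223-3p, with miR-342-3p, at 0.57, the other member over 0.5. miR-142-3p and miR-142-5p, also leukocyte miRNAs and matched under these names after the list had missed them, had -0.26 and -0.10. The mesenchymal and stellate list (13 of 13 tested) ran from 14554 to 24108 CPM in p53-/- livers and from 15768 to 30611 in p53+/+ livers, with an r of 0.0009. Its members ran from -0.30 for miR-125b-5p to 0.52 for miR-199a-5p, the 1 member over 0.5. A summed level is carried by its most abundant members. The endothelial list (2 of 6 tested) ran from 5439 to 11241 CPM in p53-/- livers and from 6414 to 12805 in p53+/+ livers, with an r of -0.04. The erythroid list (5 of 5) ran from 529 to 1352 CPM in p53-/- livers and from 560.0 to 1297 in p53+/+ livers, with 0.19. The epithelial and biliary list (8 of 8) ran from 1586 to 3859 CPM in p53-/- livers and from 2155 to 4562 in p53+/+ livers, with -0.18, and 0 members over 0.5. The endothelial and erythroid lists likewise had 0 members over 0.5. These members were picked out by their r. No member of the cell type lists above that is in the table was at 0 in any library. None of the members tested passed the genotype test.

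Pancreas miRNAs (2 of 4 tested) had the highest r of the sums of these cell type lists, 0.43 on the same mixed scale. Their sum ran from 6.01 to 25.4 CPM in p53-/- livers and from 3.05 to 387 CPM in p53+/+ livers. The 387 CPM were in p53+/+ library 5, which also had the highest miR-21a-5p, and the 6.01 CPM in p53-/- library 10, which had the lowest, with 3 of the 4 members at 0. In p53+/+ library 1, at 3.05 CPM, 3 of the 4 were at 0 as well, and p53+/+ libraries 2 and 3 held 102 and 86.6 CPM. The part of pancreas RNA in the miR-21a-5p level was not tested.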

How the data were processed

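Small RNA of liver (50 mg per sample) was sequenced in 11 libraries, all in lane 4 per the labels, so no sequencing batch could be compared. The authors deposited whole-number counts for each pair of mature miRNA and hairpin, with GRCm38 as the build and limma among the tools, per the submitters' processing notes. Not given in the sources used here are aligner, counter and trimming. The deposited CPM equal each count over its column total to within 0.005 and were not tested. Each of the 1281 names was counted once, with its highest count over its hairpins. Groups follow the genotype in the titles, whose replicate numbers run across both groups and pair no libraries.

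Tests were edgeR 4.0.16 (R 4.3.3), quasi-likelihood, TMM, filterByExpr, Benjamini-Hochberg over 388 miRNAs, threshold 0.05, and for single values two-sided exact permutation tests (scipy 1.17.1). Log2 CPM used a prior count of 2. The hairpin was folded with RNAfold 2.7.2. The tests were also run on simulated data. Alternatives covered scaling, filter, copies of a name, test (DESeq2 1.42.0, limma 3.58.1) and libraries. Members, lists and alternatives were chosen with earlier results of these data known. Named miRNAs were both arms, the seed family, the 3 neighbours on each side by mean share, the 5 highest and 3 lowest in Pearson r with the 5p arm (3 highest for the 3p arm), the 4 smallest p of the fibrosis and inflammation list and the 3 hairpins nearest in arm ratio.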

Additional observations from a re-analysis of the deposited data

Results flagged for a closer look

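The rank of miR-21a-5p in p53-/- library 10 was flagged because it lay far from those of the other libraries of its group. It ranked 9 there, against 3 to 5 in the other 5 p53-/- libraries. The same check did not flag library 10 for its share, its log2 normalised CPM or its ratio to miR-122-5p. For the log2 ratio to miR-122-5p its gap was 0.604 of the group's range, just under the critical value of 0.625. In all, 12 groups of values were checked this way and 1 was flagged. The rate of about 1 in 20 groups flagged by chance is for separate sets of continuous values. Ranks are whole numbers with ties, and most of the quantities checked rest on the same 5p counts, so that rate need not hold here.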

How the results depend on the processing

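Differences are p53-/- minus p53+/+. Neither arm of miR-21a passed the genotype test under any alternative, with adjusted p of 0.624 to 0.982 for the 5p arm and 0.738 to 1.0 for the 3p arm. Signs were not stable. Without p53+/+ libraries 1 and 2 the log2 fold change was -0.17 for the 5p arm, 0.021 for the 3p arm and -0.023 for miR-148a-3p, the share differed by -0.386 percentage points and the log2 arm ratio by -0.17. With only the p53-/- libraries of HA number above 500 the values were -0.18, 0.23 and -0.055, then -0.0653 points and -0.30, and the log2 fold change was -0.15 for miR-1191, -0.024 for miR-122-5p and 0.053 for miR-877-3p. With miR-122-5p left out of the total, the 5p share was 7.42% in p53-/- and 6.61% in p53+/+ libraries, a difference of 0.807 points on that smaller total (exact permutation p = 0.502). The log2 fold change of the 3p arm was 0.0085 with library totals and 0.0065 with miR-122-5p left out before scaling, which gave 0.011 for let-7f-5p. Leaving out 1 library at a time gave -0.065 to 0.28 for the 5p arm, -0.23 to 0.13 for the 3p arm, -0.092 to 0.488 points for the share, -0.075 to 0.48 for the arm ratio and -0.18 to 0.16 for the ratio to miR-122-5p. It gave -0.12 to 0.11 for let-7f-5p, -0.14 to 0.041 for let-7g-5p, -0.080 to 0.13 for miR-1191, -0.024 to 0.24 for miR-148a-3p and -0.067 to 0.18 for miR-423-3p. The median rank of the 5p arm was 4 to 5 over the subsets of libraries, tried for ranks and for Pearson r after seeing the data. DESeq2 called 7 miRNAs where edgeR called 1; the cause was not tested. No paired analysis was possible because the replicate numbers run across both groups and none is shared. The few 3p reads limit every value of that arm.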
